A study of Homo sapiens with 12 samples.

Results

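The genes described here are the VPS (vacuolar protein sorting), SNX (sorting nexin) and EXOC (exocyst component) genes that carried a peak of N6-methyladenosine (m6A) in 143B cells. A gene was taken when its symbol began with VPS, SNX or EXOC and a digit and at least 1 of 6 deposited peak lists held a peak for it. The rule found 54 genes of the 10536 with a peak. They held 375 peaks in 107 regions, of 21675 regions in all, where a region is a set of peaks from the 6 lists whose exon blocks overlap on the same strand. Because a peak in any list admitted a gene, the presence of peaks is a description, and counts of calls over the 54 genes are set beside the same counts over all genes and carry no test.

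143B is an established human osteosarcoma cell line. The cells were transfected with siRNA against ALKBH5, a demethylase that erases m6A, or with scrambled siRNA, and were collected at 48 h. The lists came from MeRIP-seq, which sequences RNA fragments captured by an anti-m6A antibody. There were 3 ALKBH5 knockdown and 3 scrambled control libraries. Matched inputs of both conditions were not analysed here. According to the protocol, replicates 1 and 3 used polyadenylated RNA with antibodies from different suppliers, and replicate 2 used total RNA with a commercial kit and its own antibody, so the replicate number also marks the method. The antibody field of the labels gives the antibody of replicate 1 for all 6 libraries, and that conflict could not be settled. The labels do not say whether replicates came from separate cultures, so p-values measure only the spread between these libraries, which may be partly technical. The protocol speaks of ALKBH5 siRNAs in the plural and does not give their number.

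Endosomes receive cargo from the plasma membrane and the Golgi, and protein complexes on their surface decide whether it is degraded in the lysosome or sent back. ESCRT complexes pull ubiquitinated cargo into vesicles inside the endosome, HOPS and CORVET tether endosomes and lysosomes before they fuse, and retromer, retriever and sorting nexins return cargo to the surface or the Golgi. GARP tethers the returning vesicles at the Golgi, and the exocyst tethers secretory vesicles at the plasma membrane. Some members lie outside this machinery. VPS72 is a chromatin protein that handles the histone variant H2A.Z, and EXOC3-AS1, VPS9D1-AS1 and SNX29P2 are 2 long non-coding RNAs and a transcribed pseudogene.

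The lists differed in length mainly by replicate number. The knockdown lists held 17563, 5917 and 18360 peaks in replicates 1, 2 and 3, against 15139, 5677 and 18724 in the control lists. Replicate 2 was the short list in both conditions. The lists give positions and a score but no read counts, so the depth is unknown. A peak call depends on the amount of an RNA, on the methylated share of it and on depth, which cannot be told apart from these lists. ALKBH5 itself had a peak in 0 of 3 knockdown libraries and in 2 of 3 control libraries. Among osteoblast markers, RUNX2 was called in 3 knockdown and 2 control libraries, SPP1 in 2 and 3, COL1A1 in 2 and 1, and BGLAP in 1 and 0, whereas SP7, COL1A2, ALPL, IBSP and SPARC had none. Of 9 markers of blood, epithelium and endothelium only CD68 had a peak, in 1 library of each condition.

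Of 78 protein-coding genes in the 3 families 51 had a peak, 27 of 35 VPS, 17 of 30 SNX and 7 of 13 EXOC genes. The genes without one were VPS4B, VPS16, VPS29, VPS33B, VPS35L, VPS36, VPS37A and VPS37D, then SNX3, SNX4, SNX5, SNX6, SNX7, SNX10, SNX12, SNX14, SNX15, SNX20, SNX25, SNX31 and SNX32, and EXOC1L, EXOC3L2, EXOC3L4, EXOC4, EXOC6 and EXOC6B. A peak can be missing because the RNA is rare, so these genes are not shown to lack m6A. At the threshold of the rule, 8 members had exactly 1 peak (SNX2, SNX27, SNX29P2, VPS26A, VPS28, VPS37C, VPS51 and VPS52), 14.8% of the 54 beside 11.6% of all genes with a peak. The other extreme was VPS13D with 24 peaks, and 16 members had 10 or more. The median was 4.5 peaks per member and 6 per gene over all genes. A single region held all peaks of 27 members, 50% of them, against 47.2% of all genes. The middle member region spanned 301 exonic nt, against 329 nt over all regions.

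More members were called in each knockdown list than in the control list of the same number. The counts were 40, 18 and 46 members in knockdown replicates 1, 2 and 3, against 32, 14 and 44 in the controls. As shares of the members these were 74.07, 33.33 and 85.19% in the knockdown lists and 59.26, 25.93 and 81.48% in the control lists. All genes with a peak gave 78.46, 32.01 and 86.61% in the knockdown lists and 66.53, 31.37 and 88.15% in the control lists. The group means were 34.7 ± 14.7 and 30 ± 15.1 members (SD, n = 3 each). The conditions overlapped, and the counts differed more between replicate numbers than between the conditions. By pair, 8, 4 and 2 more members were called in the knockdown, a mean difference of 4.67 with an SD over pairs of 3.06. With 1 library left out, the difference was -3.33 without control replicate 2 and -1 without knockdown replicate 3. VPS genes made up most of the difference, with 21, 9 and 22 called in the knockdown lists and 15, 5 and 22 in the control lists. SNX genes numbered 14, 6 and 16 in the knockdown lists and 12, 5 and 14 in the control lists. EXOC genes numbered 5, 3 and 8 in the knockdown lists and 5, 4 and 8 in the control lists.

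Gene by gene, 17 members were called in more knockdown than control libraries (31.5%), 4 in fewer (7.41%) and 33 in equal numbers. Over all genes with a peak, 26.1% were called in more and 17.1% in fewer. The 4 called in fewer were EXOC3-AS1, SNX13, VPS26A and VPS45. When the longer list of each pair was shortened to the length of the shorter by score, 12 members were called in more knockdown libraries, 23.5% of those still listed against 23.4% of all genes. Without both libraries of replicate 2, 11 members (20.4%) were called in more knockdown libraries against 20.5% of all genes, and 2 (3.7%) in fewer, against 11% of all genes. In some other settings the members' share was above that of all genes. It was 22.4% against 14.7% without replicate 1 and 38.1% against 27% without replicate 3. With the best-scored 50% of each list it was 41.2% against 29.5%, and with at least 2 peaks required per gene 50% against 33.3%. Without control replicate 2 alone the share was 20.4% against 20.8% of all genes, and without control replicate 1 alone 51.9% against 51.4%. In all 6 libraries 12 members were called (22.2%), beside 23.3% of all genes: EXOC3, EXOC7, EXOC8, SNX8, SNX18, SNX19, SNX33, VPS13D, VPS18, VPS37B, VPS41 and VPS9D1-AS1.

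**Figure D1:**
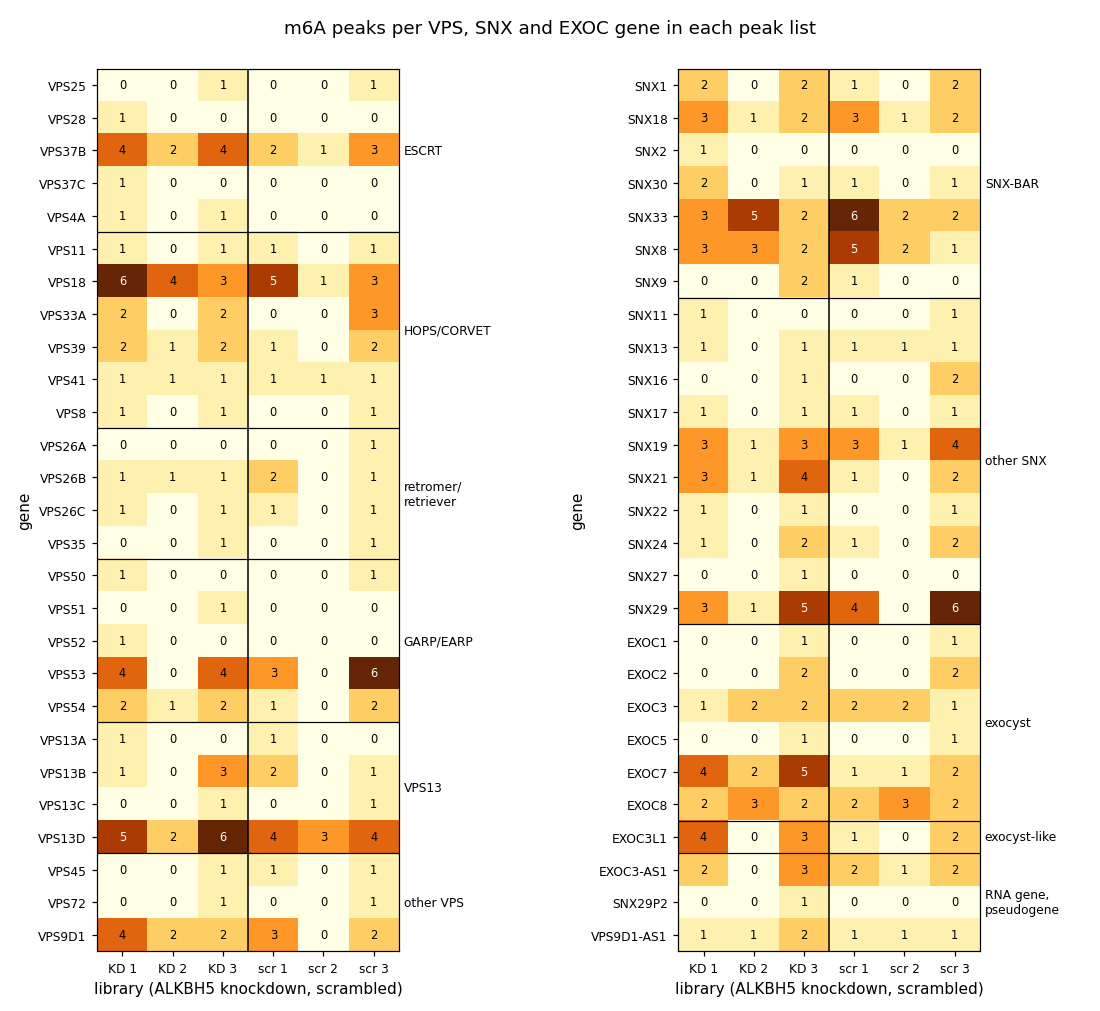
Number of peaks of each of the 54 genes (rows, grouped by role) in each of the 6 libraries (columns, knockdown replicates 1 to 3 left and control replicates 1 to 3 right). Numbers and shading give peaks per gene and library. Replicate 2 is the sparse column of both conditions, and VPS13D has the most peaks, 24 over the 6 lists.

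Pairs of the same number differed in how one-sided they were. In replicate 1, 10 of the 42 members called in either list were called in the knockdown only and 2 in the control only, where all genes gave 20.3% and 5.99%. In replicate 2 the counts were 6 and 2 of 20, beside 20.3% and 18.7% of all genes. In replicate 3 they were 5 and 3 of 49, beside 6.65% and 8.29% of all genes. The surplus on the knockdown side in replicate 1 was also present over all genes. Every member called in replicate 2 was also called in replicate 1 or 3.

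**Figure D2:**
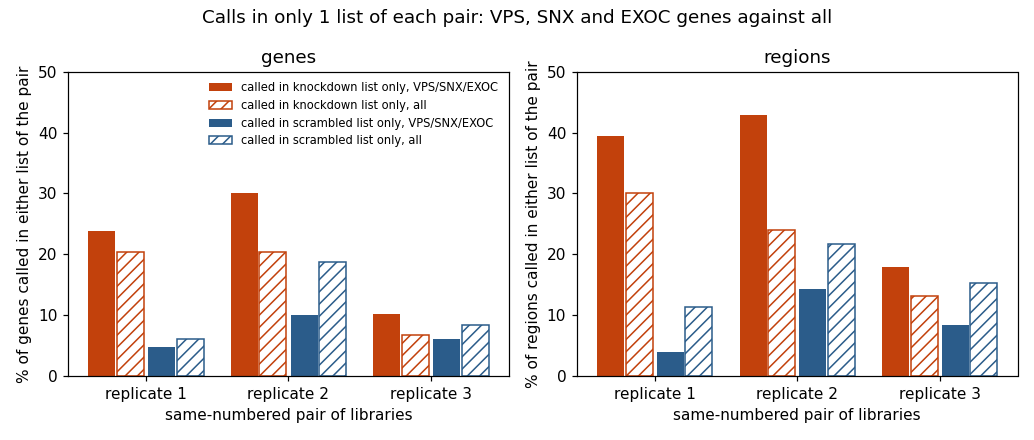
Percentage of genes (left panel) and regions (right panel) called in only 1 list of a same-numbered pair, of those called in either list, for replicates 1, 2 and 3. Orange bars are calls of the knockdown list only and blue bars of the scrambled list only, filled for VPS, SNX and EXOC genes and hatched for all. The filled orange bars are higher than the filled blue ones in every pair, for example 10 against 2 of 42 genes in replicate 1. These are 23.8% and 4.76%, and the hatched bars of that replicate show a surplus too, 20.3% and 5.99% of all genes.

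The covered exon length, the number of exonic bases of a gene inside its peaks, was the graded value the lists allowed. Summed over members it was 28560, 5622 and 39328 nt in the knockdown lists of replicates 1, 2 and 3, against 15354, 3248 and 36148 nt in the control lists. The knockdown to control ratios of the members in the 3 pairs were 1.86, 1.73 and 1.09, beside 1.57, 1.13 and 1.00 for the sum over all genes. The members' share of all covered bases was 0.505, 0.523 and 0.51% in the knockdown lists and 0.427, 0.34 and 0.471% in the control lists. These ranges did not overlap, but how often other gene sets of this size separate in the same way was not counted. The rule also admitted genes with peaks in 1 condition only, which add to that condition alone. The separation is therefore not read as a result about the members. A larger mean length in the knockdown was seen for 39 of 54 members (72.2%) and 65.3% of all genes. The median difference was 45.3 nt per member and 40 nt per gene over all genes. No member reached the smallest p that 3 against 3 libraries allow, 0.1 in a two-sided exact permutation test per gene. Of all genes 0.313% did. Because the exact permutation test cannot go lower, no gene could pass a threshold of 0.05, before or after adjustment. The lowest adjusted p of the exact permutation test over all genes, 1, is therefore not read as evidence that no gene differed.

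Of the 12 members called in all 6 libraries, 6 were longer in the knockdown of all 3 pairs (EXOC7, SNX8, SNX18, SNX33, VPS18 and VPS37B), 50% of them beside 34.1% of all genes called in all libraries. None was shorter in all 3 pairs, against 2.08% of such genes. These counts are read only against those shares.

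**Figure D3:**
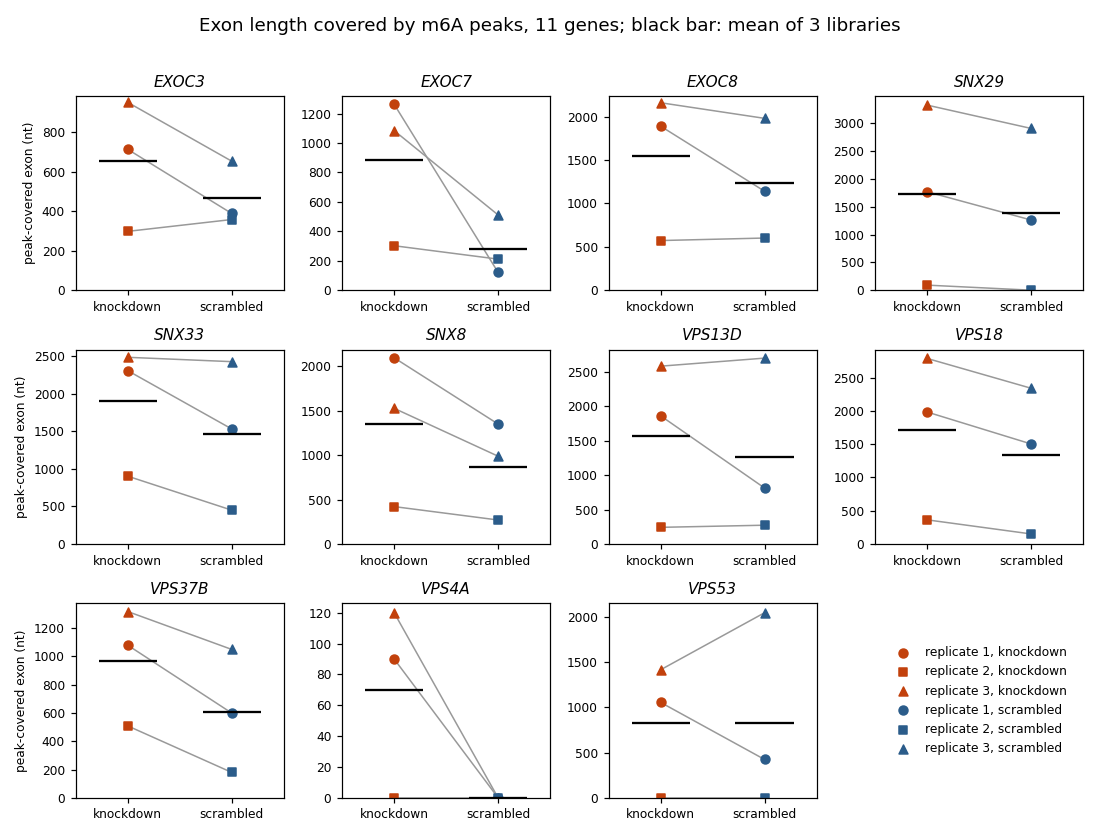
Covered exon length in nt of the 11 genes described in full, knockdown libraries left of scrambled control libraries. Each point is 1 library with its replicate number as a shape, grey lines join same-numbered libraries and black bars are means of 3 libraries. EXOC7 has knockdown values of 302 to 1263 nt and control values of 121 to 511 nt, and VPS4A has points above 0 in the knockdown only.

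ESCRT genes had the only member whose calls differed by 2 libraries. The share of all genes with such a difference is not given here, so this is not read as unusual. Of 9 VPS genes of these complexes 5 had peaks, 3 were called in more knockdown libraries (VPS4A, VPS28 and VPS37C) and 0 in fewer. Over all genes with a peak, 26.1% were called in more and 17.1% in fewer. With so few genes per group, such counts, here and below, are not read as a result about the group. VPS4A, the ATPase that takes ESCRT filaments apart, covered 90, 0 and 120 nt in the knockdown libraries, against 0 nt in all 3 controls. Its 2 peaks lay in different regions of chromosome 16, 69358231 to 69358320 in replicate 1 and 69352561 to 69352791 in replicate 3 (hg19, plus strand). Their scores ranked low, at percentiles 11.5 and 15.9 of their lists, where 100 is the best score, so no position of VPS4A was called more than once. VPS28 and VPS37C, both ESCRT-I subunits, had 1 peak each, of 119 and 121 nt in knockdown replicate 1. VPS25 of ESCRT-II was called in replicate 3 of both conditions, with 209 nt each.

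VPS37B, an ESCRT-I subunit, was called in all 6 libraries with 16 peaks in 4 regions of chromosome 12, minus strand. Its covered length was 1080, 509 and 1318 nt in the knockdown libraries, against 600, 180 and 1050 nt in the control libraries. The knockdown was longer in every pair, but its replicate 2 was shorter than control replicates 1 and 3, and the groups overlapped. The means were 969 ± 416 and 610 ± 435 nt (SD, n = 3 each), a difference of 359 nt (exact permutation p = 0.4). Within pairs the differences were 480, 329 and 268 nt (exact sign-flip p = 0.25, the smallest that 3 pairs allow). The mean difference was 144 nt without control replicate 2, 184.5 nt without knockdown replicate 3, 579 nt without control replicate 3 and 589 nt without knockdown replicate 2. A small region at 123351368 to 123351518 was called with 121 and 91 nt in knockdown replicates 1 and 3 but in none of the controls, at percentiles 30.1 and 2.79. The region at 123351637 to 123353107 was called in all 6 libraries.

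Among HOPS and CORVET genes, 6 of 8 had peaks, 3 were called in more knockdown libraries and 0 in fewer, beside 26.1% and 17.1% of all genes. VPS18, a core subunit of both complexes, covered 1983, 363 and 2788 nt in the knockdown libraries and 1503, 151 and 2340 nt in the control libraries. The group ranges overlapped, with SDs of 1235 and 1105 nt and a difference of 380 nt (exact permutation p = 0.7). Within pairs the knockdown was longer by 480, 212 and 448 nt, with an SD over pairs of 146 nt (exact sign-flip p = 0.25). Its 22 peaks formed 3 regions on chromosome 15, plus strand, of which 41191192 to 41191696 and 41194915 to 41196023 were called in 3 knockdown and 2 control libraries. VPS41, a HOPS subunit, covered 658, 150 and 807 nt in the knockdown libraries and 270, 180 and 867 nt in the control libraries. VPS39, also of HOPS, covered 989, 150 and 1377 nt in the knockdown libraries, against 539, 0 and 1077 nt in the control libraries, so replicate 2 alone gave its extra call. VPS8 of CORVET covered 211, 0 and 421 nt in the knockdown libraries, against 0, 0 and 421 nt in the control libraries, and its extra call came from replicate 1. VPS11, a core subunit, was called in 2 libraries of each condition. VPS33A, the Sec1/Munc18 protein of the core, had 7 peaks, of which 4 lay over peaks of DIABLO on the same strand with starts 0 to 3 nt apart, so those reads cannot be given to 1 gene.

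Retromer and retriever genes had peaks in 4 of 6 cases, 1 called in more and 1 in fewer knockdown libraries, beside 26.1% and 17.1% of all genes. VPS26B of retromer covered 777, 61 and 895 nt in the knockdown libraries and 360, 0 and 657 nt in the control libraries. VPS26A, the other VPS26 of retromer, had a single peak of 150 nt in control replicate 3. VPS35, the scaffold of retromer, had 1 peak in replicate 3 of each condition, of 150 nt in the knockdown and 180 nt in the control. VPS26C of retriever was called in replicates 1 and 3 of both conditions. The paralogs VPS26A and VPS26B thus differed in peaks, with 1 and 6 peaks over the 6 lists.

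All 5 GARP and EARP genes had peaks, 3 were called in more knockdown libraries and 0 in fewer, beside 26.1% and 17.1% of all genes. VPS53, a subunit of both complexes, covered 1053, 0 and 1413 nt in the knockdown libraries and 423, 0 and 2043 nt in the control libraries. The pairs went opposite ways, longer in the knockdown in replicate 1 and shorter in replicate 3, and the means were equal at 822 nt (exact permutation p = 1). That equality depended on the libraries included, as the difference was -411 nt without control replicate 2 and 610.5 nt without control replicate 3. Its 17 peaks lay in 6 regions of chromosome 17, minus strand, the most of any member. VPS54, the subunit particular to GARP, covered 510, 61 and 660 nt in the knockdown libraries and 300, 0 and 780 nt in the control libraries. VPS50, the subunit particular to EARP, was called once in each condition, in replicate 1 of the knockdown (121 nt) and replicate 3 of the control (241 nt). VPS51 and VPS52 had 1 peak each, of 179 and 61 nt, both in knockdown libraries.

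The VPS13 proteins, which carry lipids between membranes at contact sites, all had peaks, and all 4 were called in equal numbers of libraries. Equal numbers were also seen for 33 of the 54 members. Shares over all genes were 26.1% called in more and 17.1% in fewer knockdown libraries, the rest being equal. VPS13D covered 1862, 242 and 2583 nt in the knockdown libraries and 813, 273 and 2700 nt in the control libraries. The knockdown was longer in replicate 1 only, and the difference of 300.3 nt lay beside SDs of 1199 and 1274 nt and an SD over pairs of 650 nt (exact permutation p = 1). Without replicate 1 the difference was -74 nt. Its regions spanned chromosome 1 from 12336023 to 12569280, plus strand. VPS13B covered 181, 0 and 811 nt in the knockdown libraries and 122, 0 and 510 nt in the control libraries. VPS13A had 61 nt in replicate 1 of both conditions, and VPS13C had 301 nt in knockdown replicate 3 and 241 nt in control replicate 3.

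The other 3 VPS genes went different ways. VPS9D1, which has a VPS9 domain of the kind that activates Rab5-type GTPases, covered 873, 451 and 1229 nt in the knockdown libraries and 392, 0 and 989 nt in the control libraries. Of its 13 peaks 2 lay opposite peaks of ZNF276, and whether the authors' counting used the strand is not given in the sources used here. VPS45, a Sec1/Munc18 protein of endosomal fusion, covered 0, 0 and 421 nt in the knockdown libraries and 151, 0 and 421 nt in the control libraries. VPS72 had 120 nt in replicate 3 of both conditions.

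SNX proteins bind phosphoinositides through a PX domain, and those with a BAR domain also bend membranes. Of 12 SNX-BAR genes 7 had peaks, 1 called in more knockdown libraries and 0 in fewer, beside 26.1% and 17.1% of all genes. The members with most peaks, SNX33 and SNX8, were called in all 6 libraries. SNX33, an SH3 sorting nexin of endocytosis, covered 2308, 903 and 2485 nt in the knockdown libraries and 1532, 451 and 2427 nt in the control libraries. Each pair was longer in the knockdown and the groups overlapped, with a difference of 429 nt (exact permutation p = 0.6). The same-numbered pairs differed by 776, 452 and 58 nt, with an SD over pairs of 360 nt (exact sign-flip p = 0.25). Its main region, chromosome 15, 75941348 to 75949891, plus strand, ranked at percentiles 97.5, 71.9 and 92.1 in the knockdown lists and 87.5, 76.1 and 96.2 in the control lists.

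SNX8, an endosomal SNX-BAR protein, covered 2096, 421 and 1527 nt in the knockdown libraries, against 1350, 270 and 988 nt in the control libraries. The means were 1348 ± 852 and 869 ± 550 nt (SD, n = 3 each), and the knockdown was 1.55 times the control, within overlapping ranges (exact permutation p = 0.4). The difference of 479 nt was 105 nt without knockdown replicate 1, 179 nt without control replicate 2, 719 nt without control replicate 1 and 942 nt without knockdown replicate 2. Within pairs it was 746, 151 and 539 nt (exact sign-flip p = 0.25). Almost all of it lay in 1 region of chromosome 7, 2292572 to 2294725, minus strand, with a percentile of 99.4 in knockdown replicate 1. SNX18, a relative of SNX33, covered 1052, 181 and 1440 nt in the knockdown libraries and 812, 91 and 1200 nt in the control libraries. SNX9, the third SH3 sorting nexin, was called in knockdown replicate 3 with 122 nt and in control replicate 1 with 91 nt. SNX1 and SNX2 work with retromer. SNX1 covered 631, 0 and 870 nt in the knockdown libraries and 211, 0 and 1049 nt in the control libraries, and SNX2 had a single peak of 91 nt in knockdown replicate 1. SNX30 was called in replicates 1 and 3 of both conditions.

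Of 18 other sorting nexins 10 had peaks, 4 called in more knockdown libraries (SNX21, SNX22, SNX27 and SNX29) and 1 in fewer (SNX13). The shares over all genes were 26.1% and 17.1%. SNX29 had 19 peaks in 5 regions of chromosome 16, plus strand. It covered 1768, 91 and 3325 nt in the knockdown libraries and 1261, 0 and 2906 nt in the control libraries. The groups overlapped, with SDs of 1617 and 1457 nt and a difference of 339 nt (exact permutation p = 0.7). Within pairs the knockdown was longer by 507, 91 and 419 nt, with an SD over pairs of 219 nt (exact sign-flip p = 0.25). Its extra call was the 91 nt of knockdown replicate 2, at percentile 8.29. SNX29P2, a pseudogene of SNX29, had 90 nt in knockdown replicate 3, and reads of such copies can be split or misplaced, so this call is uncertain.

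SNX13 and SNX19 belong to the sorting nexins that carry PXA and PXC domains beside the PX domain. SNX19 was called in all 6 libraries, with 1378, 150 and 1945 nt in the knockdown libraries and 601, 150 and 1708 nt in the control libraries. SNX13 covered 391, 0 and 510 nt in the knockdown libraries, against 331, 151 and 570 nt in the control libraries, and lost its call in replicate 2. SNX27, a retromer cargo adaptor with a PDZ domain, had 1 peak of 91 nt, in knockdown replicate 3. SNX17, the cargo adaptor of retriever, was called in replicates 1 and 3 of both conditions, but all 4 of its peaks lay opposite peaks of ZNF513 that started 4 nt away. SNX21 had 10 of 11 peaks, and SNX22 all 3, over other peaks. These were peaks of ACOT8 and PPIB on the opposite strand and peaks without a gene symbol on the same strand. The calls therefore cannot be given to SNX21 and SNX22 alone. SNX24 was called in replicates 1 and 3 of both conditions, SNX16 in replicate 3 of both, and SNX11 once in each condition.

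Of 9 exocyst subunits 6 had peaks, and all 6 were called in equal numbers of libraries, like 33 of the 54 members. Shares over all genes were 26.1% called in more and 17.1% in fewer knockdown libraries, the rest being equal. EXOC7, the Exo70 subunit that binds phosphoinositides of the plasma membrane, showed the largest ratio of mean covered length among the 12 members called in all 6 libraries. Its covered length was 1263, 302 and 1084 nt in the knockdown libraries, against 121, 211 and 511 nt in the control libraries. Every pair was longer in the knockdown, but knockdown replicate 2 lay below control replicate 3. The means were 883 ± 511 and 281 ± 204 nt (SD, n = 3 each), a 3.14-fold ratio and a difference of 602 nt. The exact permutation test, which ignores the pairing, gave p = 0.2 and an adjusted p of 1 over all genes. The same-numbered pairs differed by 1142, 91 and 573 nt, with an SD over pairs of 526 nt (exact sign-flip p = 0.25).

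The 15 EXOC7 peaks lay in 4 regions of chromosome 17, minus strand. The region at 74077086 to 74077775 was called in all 6 libraries, with 660, 91 and 571 nt in the knockdown libraries and 121, 211 and 420 nt in the control libraries. The region at 74079123 to 74079423 was called in the 3 knockdown libraries, with 121, 211 and 211 nt, and in no control library. It was the only member region with this pattern, and its percentiles were 33.6, 62.4 and 32.2. No other gene's peak lay over it. How common this pattern is among all regions was not counted, so it is not read as unusual. Regions gained in at least 2 pairs and lost in none made up 2.8% of member regions beside 3.42% of all. The region at 74078704 to 74078914 was called in knockdown replicates 1 and 3 with 211 and 61 nt, and in no control. The region at 74079513 to 74079813 covered 271 and 241 nt in knockdown replicates 1 and 3, against 91 nt in control replicate 3. In all, 6 EXOC7 peaks lay opposite peaks of ZACN, all in the first 2 regions by position, and without such peaks, a setting chosen after seeing the data, the difference was 241 nt. The groups then did not overlap (exact permutation p = 0.1, the smallest possible), but the peaks left out differed by library. In the region at 74077086 to 74077775 they were left out in knockdown replicates 1 and 3 and control replicate 3 only. Unlike positions were thus compared. The share of all genes reaching this p in that setting was not counted, so the p is not read as a result. The rule for full values named EXOC7 both by its number of peaks and by a region gained in at least 2 pairs. Its regions are therefore a description and not a test.

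**Figure D4:**
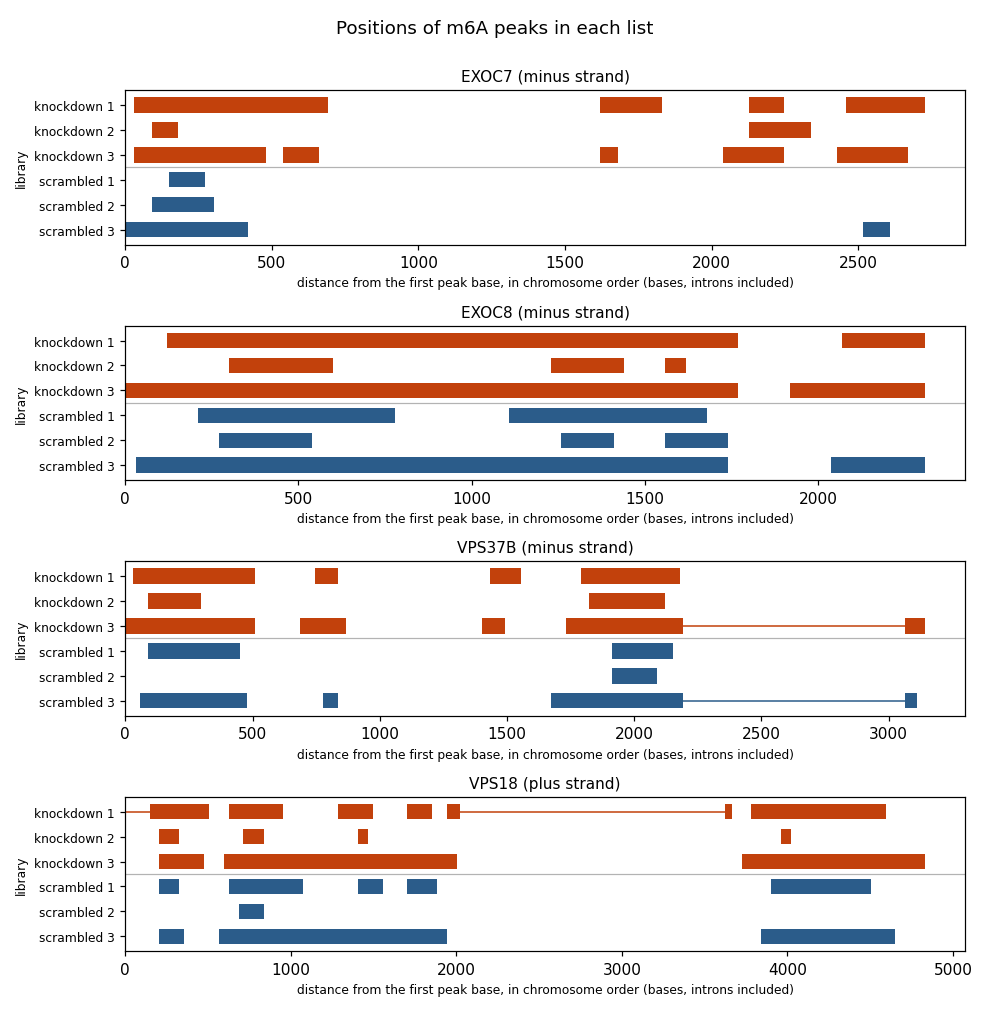
Peaks of EXOC7, EXOC8, VPS37B and VPS18 in each library (rows, knockdown above scrambled control) against the distance in bases from the first peak base in chromosome order, introns included. Bars are exon blocks and thin lines join blocks of 1 peak. In EXOC7 the third region by position has bars in the 3 knockdown libraries and none in the controls.

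EXOC8, an exocyst subunit that binds the GTPase Ral, covered 1890, 572 and 2160 nt in the knockdown libraries and 1140, 601 and 1980 nt in the control libraries. Replicate 2 was shorter in the knockdown and the others longer, and the groups overlapped (difference 300.3 nt, exact permutation p = 0.8). EXOC3 covered 714, 298 and 952 nt in the knockdown libraries and 389, 358 and 654 nt in the control libraries, with replicate 2 again the exception (difference 188 nt, exact permutation p = 0.6). EXOC1, EXOC2, which also binds Ral, and EXOC5 were called in replicate 3 of both conditions only, at 181, 420 and 210 nt in the knockdown and 210, 360 and 330 nt in the control. EXOC3L1, an EXOC3-like gene, was called in replicates 1 and 3 of both conditions, and all 10 of its peaks lay over peaks of MATCAP1 on the same strand, so it cannot be described by itself.

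The 2 antisense RNAs did not share peaks with their partners. EXOC3-AS1 covered 330, 0 and 662 nt in the knockdown libraries and 331, 61 and 780 nt in the control libraries. VPS9D1-AS1 covered 446, 120 and 655 nt in the knockdown libraries and 60, 120 and 535 nt in the control libraries. Reads of a gene and of its antisense partner could still be mixed, since the use of strand in the counting is not given.

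By region, 53 of 107 were called in more knockdown than control libraries (49.5%) and 13 in fewer (12.1%). Over all regions the shares were 32.6% and 23.1%, and over those with a gene number 32.7% and 22.9%. VPS genes had 26 regions called in more and 6 in fewer of 51, SNX genes 18 and 6 of 38, and EXOC genes 9 and 1 of 18. Regions of 1 gene share its RNA and are not independent of each other. With only the best-scored 50% of each list, 19 regions were called in more knockdown libraries, 35.2% of those left against 32.6% of all, so the distance from the background was smaller there. Without replicate 1, 28 regions (29.5%) were called in more, against 19.4% of all. Some member regions lie over peaks of other genes. With member peaks over such peaks left out, a setting chosen after seeing the data, 42 of 94 (44.7%) were, against 32.6% of all. At equal list size within pairs 42 of 99 (42.4%) were, against 29.1% of all. All 6 libraries called 12 member regions (11.2%), beside 12.7% of all regions.

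Regions called in exactly 1 library numbered 30 (28%), beside 28.9% of all regions. Of these, 22 were in the knockdown (20.6% of member regions, beside 13.6% of all), 9 in replicate 1 and 13 in replicate 3, and the others were 2 in control replicate 1 and 6 in control replicate 3. Regions gained in the knockdown in at least 2 pairs and lost in none numbered 3, 2.8% of the members' regions beside 3.42% of all, and were those of EXOC7 and VPS37B given above. No member region was lost in at least 2 pairs and gained in none, against 1.08% of all regions. In replicate 1, 30 of the 76 member regions called in either list were called in the knockdown only and 3 in the control only, where all regions gave 30% and 11.3%. In replicate 2 the counts were 12 and 4 of 28, beside 24% and 21.7%. In replicate 3 they were 17 and 8 of 95, beside 13.1% and 15.3%.

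Genes that work with these families, 92 in 6 lists, were taken for comparison. Peaks were found for 51, and 9 were called in more knockdown libraries (17.6%, beside 26.1% of all genes), 7 in fewer (13.7%, beside 17.1%) and 35 in equal numbers. PDCD6IP (ALIX), an ESCRT adaptor, covered 150, 90 and 120 nt in the knockdown libraries, against 0, 0 and 151 nt in the control libraries. WASHC1, a subunit of the actin-nucleating WASH complex, covered 388, 61 and 418 nt in the knockdown libraries, against 0, 0 and 210 nt in the control libraries. A pair of GTPases of exocytosis differed by 2 libraries in opposite directions. RAB10 covered 269, 0 and 60 nt in the knockdown libraries and 0 nt in all controls, and RHOQ covered 0 nt in all knockdown libraries, against 210, 0 and 450 nt in the control libraries. PIK3R4, the VPS15 subunit of the VPS34 lipid kinase, lost its call in knockdown replicate 2, with 1110, 0 and 1681 nt in the knockdown libraries and 511, 421 and 1350 nt in the control libraries. EEA1, an early endosome tether, was called in 1 knockdown and 2 control libraries.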

How the data were processed

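MeRIP-seq peak lists of 6 immunoprecipitated libraries were analysed, 3 of ALKBH5 knockdown and 3 of scrambled siRNA, grouped by their treatment labels. Inputs were left out, and 1 osteoblast marker is not reported here. Per the submitters' processing notes, CASAVA 1.8.2, TopHat2, SAMtools and the hg19 genome were used; their roles, and the name and threshold of the peak caller, are not given here in any source used. The authors deposited 1 list per library, so peaks were not called on pooled samples. Each list has 12 columns. The score that the authors deposited per peak was read as a p-value of their peak caller, because it runs to 0.011 at most and the file headers call it only a score. It was used only to rank peaks within a list. More reads can lengthen a list, and depth is unknown.

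Peaks were joined into regions by exon blocks that shared 1 bp or more of 1 strand. A gene was called where a peak carried its gene number. A RefSeq table (GRCh38.p14), used for names only, matched 10500 numbers and left 36 unmatched. Members, gene lists and alternatives were chosen with earlier results of these data known. Full values were given by rule to members whose called libraries differed by 2 or more, the 3 members of each family with most peaks (ties by symbol), and members with a region called in every knockdown and no control library or the reverse, or gained or lost in at least 2 pairs without the opposite. From each partner list, the text draws on up to 2 genes named by the largest difference in libraries called.

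Covered length was compared per gene with a two-sided exact permutation test (20 splits, smallest p 0.1), with Benjamini-Hochberg adjustment over all genes. The alternatives tried were the best-scored 50% of peaks, equal list sizes within pairs, each library left out and a 50 bp overlap. Others were at least 2 peaks per gene, positions of exactly 1 gene and protein-coding members only. Chosen after seeing the data were each replicate number left out, and member peaks over another gene's peak or a peak without a symbol left out. The protocol ties each replicate number to an RNA type and antibody, so the numbers pair the libraries; deviations of same-numbered libraries correlated at 0.24, 0.314 and 0.295. Scripts (Python 3.11.15, pandas 2.3.3, numpy 2.4.6, matplotlib 3.10.9) were tested on simulated data. No sequence is printed, since a genome of the hg19 build was not used here.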

Additional observations from a re-analysis of the deposited data

How the results depend on the processing

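The difference in members called, 4.67, ranged from -3.33 to 13 when 1 library was left out. It was negative without control replicate 2 and without knockdown replicate 3, and was 2.67 at equal list size within pairs. With the replicate number as a block the mean difference is 4.67 by construction, so that setting could not change it. The exact sign-flip test over 3 pairs cannot go below p = 0.25. Leaving out 1 library compares 2 with 3 libraries, so counts shift by construction: 11 to 38 genes were called in more (20.8 to 61.3% of all genes) and 2 to 25 in fewer knockdown libraries (11.4 to 50.2%), and 42 to 82 regions in more (29.4 to 68.4% of all regions) and 8 to 42 in fewer (17.4 to 55.3%). Genes called in more numbered 11 of 49 without replicate 1 (22.4%, beside 14.7% of all) and 11 of 54 without replicate 2 (20.4%, beside 20.5%). Genes called in fewer numbered 2 with at least 2 peaks per gene (7.14%, beside 23.9%) and 2 without replicate 2 (3.7%, beside 11%). Regions called in more numbered 19 with the best-scored 50% of each list (35.2%, beside 32.6%) and 28 without replicate 1 (29.5%, beside 19.4%), and regions called in fewer 7 with the best-scored 50% (13%, beside 24.1%) and 7 without replicate 3 (9.21%, beside 17.4%). Of the 11 genes given in full, 10 had a larger mean length in the knockdown, and 5 to 11 with 1 library left out. The sign turned for 5 of them when 1 library was left out, with ranges of -19.3 to 785 nt for EXOC8, -459.5 to 1158 nt for SNX29, -80.83 to 926.5 nt for SNX33, -210 to 1019 nt for VPS13D and -210.2 to 1054 nt for VPS18, and VPS13D gave -74 nt without replicate 1. The ranges were -411 to 610.5 nt for VPS53, whose difference was -260.3 nt with the best-scored 50%, 104.7 to 942 nt for SNX8, 144 to 589 nt for VPS37B, 39 to 366 nt for EXOC3, 412 to 892.5 nt for EXOC7 and 45 to 105 nt for VPS4A. Depth is unknown. With 3 libraries a group the exact permutation test cannot go below p = 0.1 and the exact sign-flip test not below p = 0.25. No difference in covered length, however large, could therefore pass a threshold of 0.05. The cause of these shifts was not tested. For the genes given in full, the replicate block likewise keeps each mean difference by construction, and only the test differs.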
